A study of Mus musculus with 28 samples.

Results

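Mela is the mouse gene for the melanoma antigen of the B16 tumour line, an envelope protein encoded by an endogenous ecotropic murine leukaemia provirus. It was followed through every probe that the scanner files name Mela, which is 1 gene read by 1 probe with 1 spot per array, out of 41174 probes on the array and 19441 genes kept for testing. The gene was chosen by its intensity on these same arrays, where it differed with age, so its differences between old and young cells and its changes with stimulation are given as descriptions, without a test. The arrays measured RNA of CD4 and CD8 T cells sorted from BALB/c mice that were 4 months (young) or 20 months (old) of age. Cells were taken at 0 h, without stimulation, or after 4, 12, 24 or 72 h of stimulation by plate-coating antibodies to CD3 and CD28. These engage the T cell receptor complex and a costimulatory receptor. The 20 groups comprise 4 at 0 h with 3 arrays each and 16 stimulated ones with 1 array each, 28 arrays in all. All groups share the BALB/c strain, and each RNA sample pools 4 sortings. The labels conflict on the sorted cells, which are low in CD62L and high in CD44 in the sample titles and naive cells low in CD44 in other places. Because the arrays of a group are not stated to come from separate animals, p-values may measure technical spread only. In such bulk RNA, more cells with the transcript and more transcript per cell cannot be told apart.

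Endogenous retroviruses are proviruses inherited in the germ line, with gag, pol and env genes between long terminal repeats (LTRs) that act as promoter and enhancer. Most are kept silent by DNA methylation and by repressive histone marks laid down through zinc finger proteins, Trim28 and Setdb1, whereas some ecotropic proviruses remain competent to produce infectious virus, which enters mouse cells through the cationic amino acid transporter Slc7a1. The annotated Mela locus is that of the C57BL/6 reference, and BALB/c mice carry an ecotropic provirus at another place in the genome. Which proviral copy, or how many copies, the probe read was not tested.

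The probe is A_51_P326826, designed on NM_008581, with 60 bases on the minus strand at chr8:122067110-122067169 of build mm7 in the scanner files. Its spot was neither saturated nor flagged as an outlier on any array. Levels are given as log2 of the background-corrected intensity minus the log2 of the array's 75th percentile, so that 0 is the intensity of that percentile and 1 unit is a doubling. A signal counted as detected where the scanner software marked it as well above the local background.

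Some arrays stood apart before any comparison. The noncoding RNA Xist, made from the inactive X chromosome, was well above background on 26 of the 28 arrays, at 2.15 to 4.10, but not on young CD4 replicates 1 and 2 at 0 h, at -6.82 and -5.94. On those 2 arrays the Y-linked genes Ddx3y and Eif2s3y stood at 1.06 and 1.25 and at 2.16 and 2.35, against -7.81 to -3.12 for Ddx3y on the other arrays. These 2 arrays share slide 12 with old CD4 replicates 1 and 2, so age and Xist status cannot be told apart there, while slide 9, the CD8 arrays and the stimulated arrays are matched for Xist. The 10 arrays of stimulated CD4 cells and CD4 replicate 3 of both ages came from another scanner and software version than the other 18. Repeat spots varied by 18.0 to 23.7% on the CD4 arrays of 12, 24 and 72 h, against 6.24 to 12.2% on the others. The T cell gene Cd3e was detected on all arrays, and Cd8a at 0 h stood at 6.44 to 6.97 in CD8 cells and at -3.37 to -1.92 in CD4 cells.

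Mela was detected on all 14 arrays of old cells and on 4 of 14 arrays of young cells. The background-corrected intensity ran from 2733 to 77820 in old cells and from 3.91 to 196 in young cells. On the normalized log2 scale the old arrays lay between 3.57 and 7.45 with a median of 5.67, and the young arrays between -6.78 and -2.001 with a median of -5.75. The lowest old array was 5.58 log2 units, or 47.7-fold, above the highest young array. The ages did not overlap in either cell type or at any time.

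**Figure D1:**
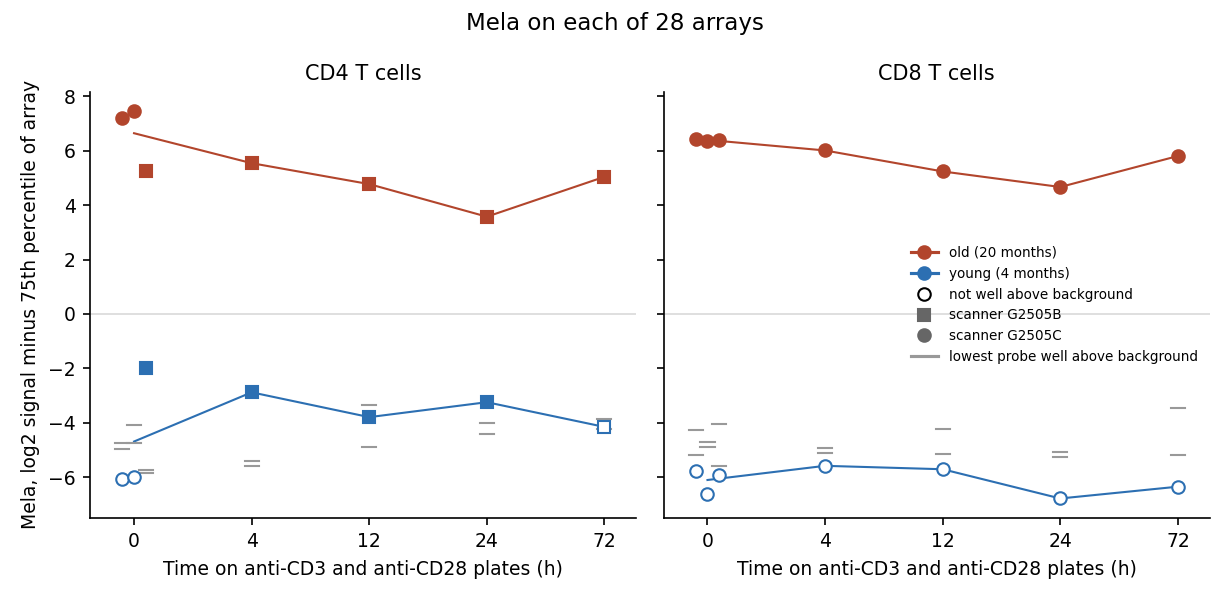
Mela level on each of the 28 arrays, as log2 intensity relative to the array's 75th percentile, by cell type, age and hours of stimulation (times evenly spaced, not to scale); open symbols were not well above background, squares and circles mark the 2 scanners, lines join group means and grey bars mark each array's lowest probe well above background. The 14 old arrays lie between 3.57 and 7.45 and the 14 young arrays between -6.78 and -2.001, of which 4, all of CD4 cells, were well above background.

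In unstimulated CD4 cells, the 3 old arrays gave Mela levels of 7.22, 7.45 and 5.26, which are 149, 174 and 38.4 times the 75th percentile of their arrays. The 3 young arrays gave -6.08, -5.99 and -2.001. All 3 old arrays were high, replicate 3 less so, and in the young group replicate 3 alone was above background, with an intensity of 196 against 4.81 and 5.01 on the other two. The group means were 6.64 ± 1.20 (SD, n = 3) in old and -4.69 ± 2.33 (SD, n = 3) in young cells, a difference of 11.33 ± 0.98 (SE from the fit), or 2577-fold as measured; as 2 of the 3 young arrays were not above background, this fold is not exact. Replicate 3 of both ages shared slide 9, and the difference there was 7.26, or 154-fold, with both arrays detecting Mela and both detecting Xist. On slide 12 it was 13.37 as measured. Neither young array there was above background, so the lower bound was 11.75, or at least 3443-fold. Without the 2 young arrays that lacked Xist, the CD4 difference was 8.64.

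In unstimulated CD8 cells the old arrays gave 6.44, 6.36 and 6.39 for Mela, which is 86.9, 82.1 and 84.1 times the 75th percentile. The young arrays gave -5.79, -6.61 and -5.91, none of them well above background. The old arrays were nearly equal, and every one stood far above every young array. The means were 6.40 ± 0.04 (SD, n = 3) and -6.10 ± 0.44 (SD, n = 3). As no young array was above background, the measured difference of 12.50 ± 0.98 (SE from the fit) is not exact. Its lower bound was 11.24, or at least 2413-fold. The SE of 0.98, the same as in CD4 cells, rests on a spread shared by the 4 groups of 0 h and does not measure that of the CD8 arrays alone. The bound sets the old mean against the lowest signal that was well above background on the young arrays. Old and young CD8 arrays were also compared within a slide, giving 12.18 as measured on slide 4 and 12.66 on slide 13. The lower bounds there were 1600-fold and 2963-fold.

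After stimulation, old CD4 cells had Mela levels of 5.54 at 4 h, 4.77 at 12 h, 3.57 at 24 h and 5.04 at 72 h, and young CD4 cells had -2.88, -3.79, -3.24 and -4.15. Mela was detected in young CD4 cells at 4, 12 and 24 h but not at 72 h, so at the first 3 times both ages were measured. The old CD4 level was 343-fold the young level at 4 h, 379-fold at 12 h and 113-fold at 24 h, and at least 483-fold at 72 h. Put the other way, the young signal was 0.291%, 0.264% and 0.886% of the old signal at the 3 times with both ages detected, and 0.651% on slide 9 at 0 h. The CD4 difference averaged 8.25 ± 1.01 log2 units (SD over 4 times). The old and young CD4 arrays of each time shared a slide.

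Old CD8 cells had Mela levels of 6.01 at 4 h, 5.24 at 12 h, 4.67 at 24 h and 5.80 at 72 h, against -5.58, -5.71, -6.78 and -6.35 in young CD8 cells. Every old CD8 array detected Mela and no young one did. The old level was therefore at least 1980-fold higher at 4 h, at least 716-fold at 12 h, at least 960-fold at 24 h and at least 2009-fold at 72 h. Only the 12 h pair came from different slides. The measured CD8 difference averaged 11.53 ± 0.50 log2 units (SD over 4 times).

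**Figure D2:**
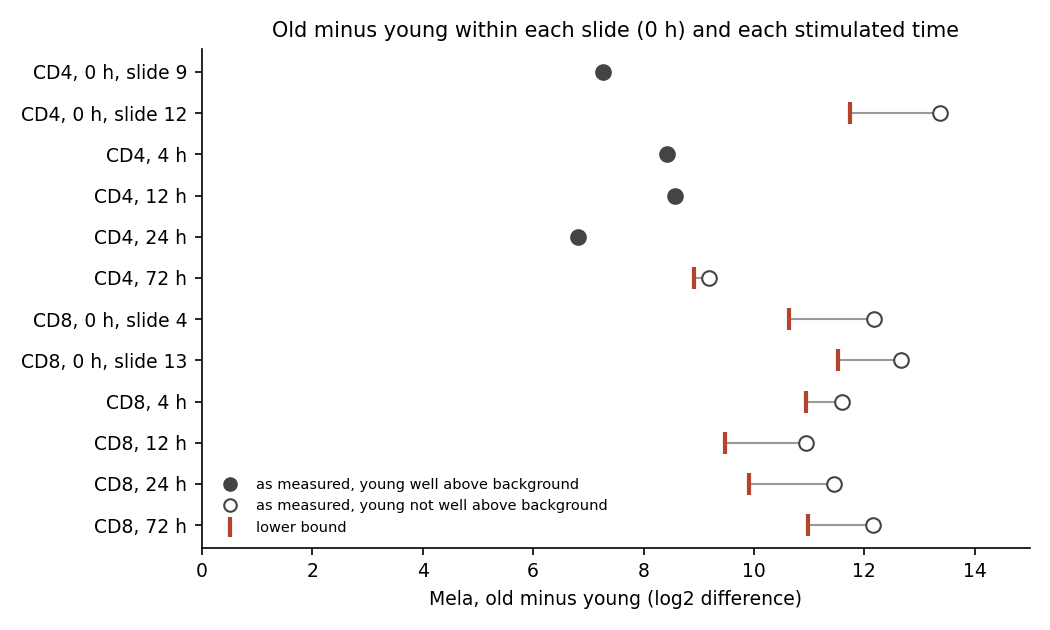
Old minus young difference of Mela in log2 units for each cell type, within each slide at 0 h and at each stimulated time. Measured differences run from 6.82 in CD4 cells at 24 h to 13.37 on slide 12 at 0 h; open circles mark those where no young array was well above background, each with its lower bound as a bar.

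Detection in young cells went with the cell type, the scanner and, among CD4 arrays, the levels of several lists of cell type markers, myeloid ones among them. All 4 young arrays with a Mela signal well above background were CD4 arrays read on the G2505B scanner, on which 4 of 5 young arrays detected it, at -4.15 to -2.001 over the 5. The 2 young CD4 arrays read on the other scanner and all 7 young CD8 arrays, read on that same scanner, did not. Among young CD4 arrays, detection also went with the summed level of 15 myeloid markers, described further below. At 0 h the sum was 238 on replicate 3, which detected Mela, and 4.72 and 4.45 on replicates 1 and 2, which did not. After stimulation it was 142, 54.1 and 10.7 at 4, 12 and 24 h, with detection, and 1.41 at 72 h, without. Young CD8 replicate 1 at 0 h had a sum of 50.5 without detection. The myeloid list was not alone in this. Sums of T cell, CD4 lineage, CD8 lineage and natural killer cell markers were lower on the young CD4 arrays with detection. This held within 0 h and within the stimulated arrays. For T cell markers the sum was 556 on replicate 3 against 754 and 755 at 0 h. After stimulation it was 471, 527 and 436 with detection and 736 at 72 h without. The parts of the scanner and of myeloid or other cells in this detection were not tested, and no CD8 array was read on the G2505B scanner.

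Within old cells, the Mela level at every stimulated time was below the 0 h mean of the same cell type. In CD8 cells it was 76.4% of that mean at 4 h, 44.7% at 12 h, 30.1% at 24 h and 66.3% at 72 h, and all 4 arrays lay below all 3 arrays of 0 h. In CD4 cells it was 46.6%, 27.3%, 11.9% and 32.9% at the same times, and the arrays of 12, 24 and 72 h lay below every 0 h array whereas that of 4 h did not. Both cell types were lowest at 24 h and higher again at 72 h, with 1 array per time and no replicate of any stimulated group. The mean change was -0.97 ± 0.60 log2 units in CD8 cells and -1.91 ± 0.84 in CD4 cells (SD over 4 times). The CD4 value depends on the scanner, because all stimulated CD4 arrays but only replicate 3 of 0 h came from the G2505B scanner: against that replicate alone the changes were 0.28, -0.49, -1.69 and -0.22, with a mean of -0.53. Even at its lowest, in old CD4 cells at 24 h, Mela stood at 11.9 times the 75th percentile of its array.

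Ordered by level, the 10 old groups came first and the 10 young groups last, with a gap of 6.46 log2 units between old CD4 cells at 24 h and young CD4 cells at 4 h. Unstimulated old CD4 and old CD8 cells led, followed by old CD8 cells at 4 h and 72 h, old CD4 cells at 4 h, old CD8 cells at 12 h, old CD4 cells at 72 h and 12 h, old CD8 cells at 24 h and old CD4 cells at 24 h. Neighbours in this order among old groups were 0.11 to 1.09 apart, less than the SD of 1.20 between the old CD4 arrays of 0 h. Among the young groups, the 5 CD4 groups all stood above the 5 CD8 groups, but only 4 young arrays gave a signal above background, so the order of the others has no meaning.

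The level of Mela in old cells was compared between cell types by a test. The choice of the gene did not use that difference, but it used the old arrays of both cell types. The test is therefore not independent of the choice. Unstimulated old CD8 cells were at 6.40 and old CD4 cells at 6.64, and the CD8 values fell within the range of the CD4 values. The old CD4 arrays were on slides 12 and 9 and the old CD8 arrays on slides 13 and 4. Cell type and slide therefore cannot be told apart here. The difference was -0.24 ± 0.98 (SE), with a 95% interval from -2.44 to 1.95, or from 5.43-fold lower to 3.87-fold higher in CD8 cells (limma, adjusted p = 0.89 over all genes, n = 3 per cell type). The interval is wide and does not show that the levels were alike. The fit shares 1 estimate of the spread among the 4 groups of 0 h, including young CD4 cells with an SD of 2.33. The SE, interval and p therefore do not measure the spread of the old arrays alone. Without young CD4 replicate 3 the SE was 0.51. In the same comparison 10.5% of all genes passed the threshold of an adjusted p of 0.05. Leaving out CD4 replicate 1 or 2 turned the difference to 0.04 or 0.16, and leaving out replicate 3, the one from the other scanner, gave -0.94 (adjusted p = 0.63, limma).

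Mela had the largest old minus young difference of all genes kept in each of the 4 age comparisons: CD4 and CD8 cells at 0 h and CD4 and CD8 cells after stimulation. In each, the next was Pla2g5, a secreted phospholipase, with 7.32, 8.12, 7.01 and 5.83. Counting genes whose lowest old array exceeded their highest young array, 7 of 17285 measured on all 28 arrays (0.0405%) did so, and 2 (0.0116%) did the reverse. Mela had the widest such separation, 5.58 log2 units, followed by Pla2g5 with 3.21, whereas the remaining 5 genes were separated by 0.02 to 0.41. These ranks come from the contrast by which the gene was chosen and are given as description only.

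The array also carries other retroelement probes, and no such probe had a difference like that of Mela. Of 33 probes found by their annotation, 18 name a retrovirus and 15 another retroelement, and 8 and 10 of these were well above background on fewer than 3 arrays. After choosing 1 probe per gene, 9 retrovirus and 4 other retroelement probes were kept. The 9 include a probe that bears the gene name Clcn1, so not all of them are named as retroviral genes. Of these 13, none passed the threshold in any of the 4 age comparisons (limma), in which 1.73% and 2.21% of all genes at 0 h in CD4 and CD8 cells, and 0.113% and 0.412% after stimulation, did. The median old minus young difference of the 9 retrovirus probes was -0.26, -0.25, 0.25 and -0.61 in the same order, beside -0.03, -0.05, 0.03 and -0.05 over all genes. At an unadjusted p of 0.05, which 17.1%, 11.4%, 9.12% and 9.07% of all genes passed, 3, 0, 1 and 4 of the 9 did, Clcn1 being among the last 4. Fitted with the slide as a block, 1 retrovirus probe was higher and 1 lower in old CD4 cells at 0 h, where that fit called 22.8% of all genes, and none in CD8 cells, where it called 9.59%. That fit also called 1 of the 4 other retroelement probes lower in CD4 cells. With the replicate number as a block, none of the 13 passed in CD4 cells, where 0.766% of all genes did.

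Of the probes for single retroviral genes, the pol probe NM_001012326 was the brightest, at 2.60 ± 0.85 in old and 3.82 ± 0.04 in young CD4 cells (SD, n = 3), a difference of -1.22 (limma, adjusted p = 0.17). In CD8 cells the pol difference was -0.33, and it is this probe that was lower with the slide as a block. The gag probe LOC669759 differed by 0.76 in CD4 and -0.25 in CD8 cells, and it was the one that was higher in CD4 cells with the slide as a block. The envelope probes gave -0.73 and -0.56 for D430020J02Rik, which resembles the envelope of spleen focus-forming virus, -0.43 and 0.07 for a further such probe, AK083796, and -0.31 and 1.08 for LOC641050, a mammary tumour virus envelope. LOC641050 was well above background on only 2 of 6 CD4 and 3 of 6 CD8 arrays of 0 h, so its values are not exact. An intracisternal A particle envelope, TC1532590, was above background on none of those 12 arrays and gives no difference there. Mela differed by 11.33 and 12.50 on the same arrays. The L1 retrotransposon L1Md-Tf30, which copies itself without an envelope, had the smallest adjusted p of the 13 in CD4 cells at 0 h, with -1.30 (limma, adjusted p = 0.078), and it is the one called lower with the slide as a block (adjusted p = 0.026). In CD8 cells at 0 h it was not above background on any array. Between unstimulated old CD8 and old CD4 cells, where 4.27% of all genes were lower in CD8 cells and Mela did not pass, 2 of the 13 probes were lower in CD8 cells: LOC669759, by -1.23 (limma, adjusted p = 0.013), and the L1 probe TC1419971, by -1.68 (adjusted p = 0.037). The old CD8 and old CD4 arrays shared no slide, so cell type and slide cannot be told apart in these calls.

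**Figure D3:**
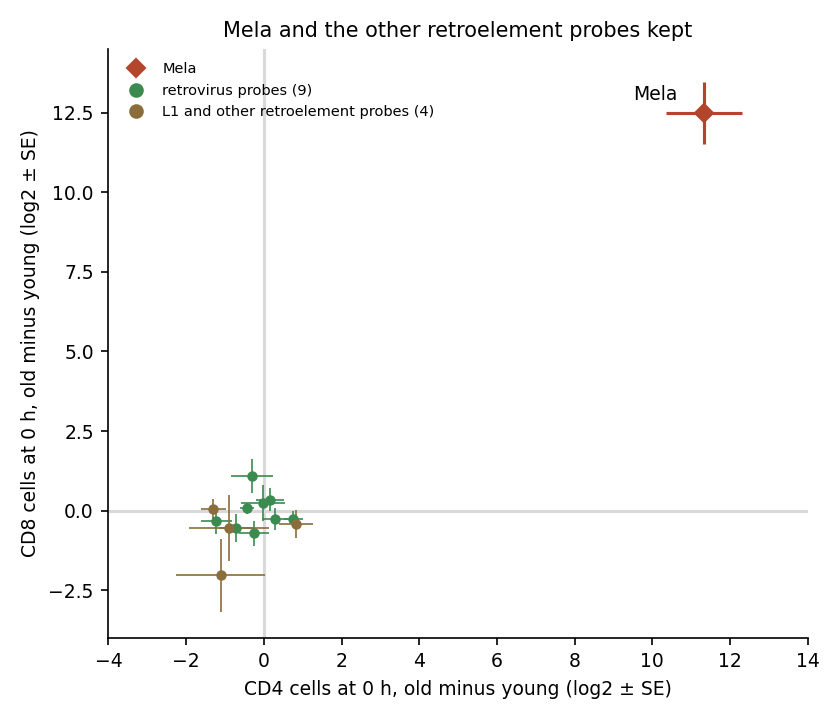
Old minus young difference in log2 units at 0 h for Mela and the 13 other retroelement probes kept, in CD4 (horizontal) and CD8 (vertical) cells, with bars of 1 SE. Mela lies at 11.33 and 12.50, and the other probes lie between -2.03 and 1.08 as measured, some of them below background.

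The neighbours of the annotated locus were read in the same way, by the coordinates in the scanner files. The 3 nearest genes on each side were Tubb3, Mc1r and Tcf25 and, on the other side, Def8, Afg3l1 and Dbndd1, of which Tubb3 encodes a tubulin and Mc1r the receptor for melanocyte-stimulating hormone. Their old minus young differences ranged from -0.99 to 0.88 in CD4 and from -0.60 to 1.13 in CD8 cells at 0 h, and none passed the threshold (limma, smallest adjusted p = 0.24 and 0.81). After stimulation they ranged from -0.48 to 0.48 and from -0.81 to 0.31. With the slide as a block, Tubb3 was lower, by -0.99 (adjusted p = 0.015), and Afg3l1 higher, by 0.56 (adjusted p = 0.0496), in CD4 cells at 0 h. That fit called 22.8% of all genes there, so these calls do not set the neighbours apart.

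Of the 34 genes kept within 600 kb, 1 was higher in old CD4 and old CD8 cells at 0 h and in old CD8 cells after stimulation, where 1.21%, 1.69% and 0.329% of all genes were higher, and none was lower. That gene is Ryk, a receptor of Wnt ligands, with 2.96 (limma, adjusted p = 0.030), 4.48 (adjusted p = 0.0024) and 3.52 (adjusted p = 0.0057). The files place this Ryk probe on chromosome 8 and a further Ryk probe, which gave 1.17 and 3.00 at 0 h, on chromosome 9, where the gene table used for names also places the gene. The 34 genes had medians of -0.22 and -0.08 at 0 h and -0.15 and -0.20 after stimulation. The provirus of BALB/c lies elsewhere, so these neighbours describe the annotated locus only.

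**Figure D4:**
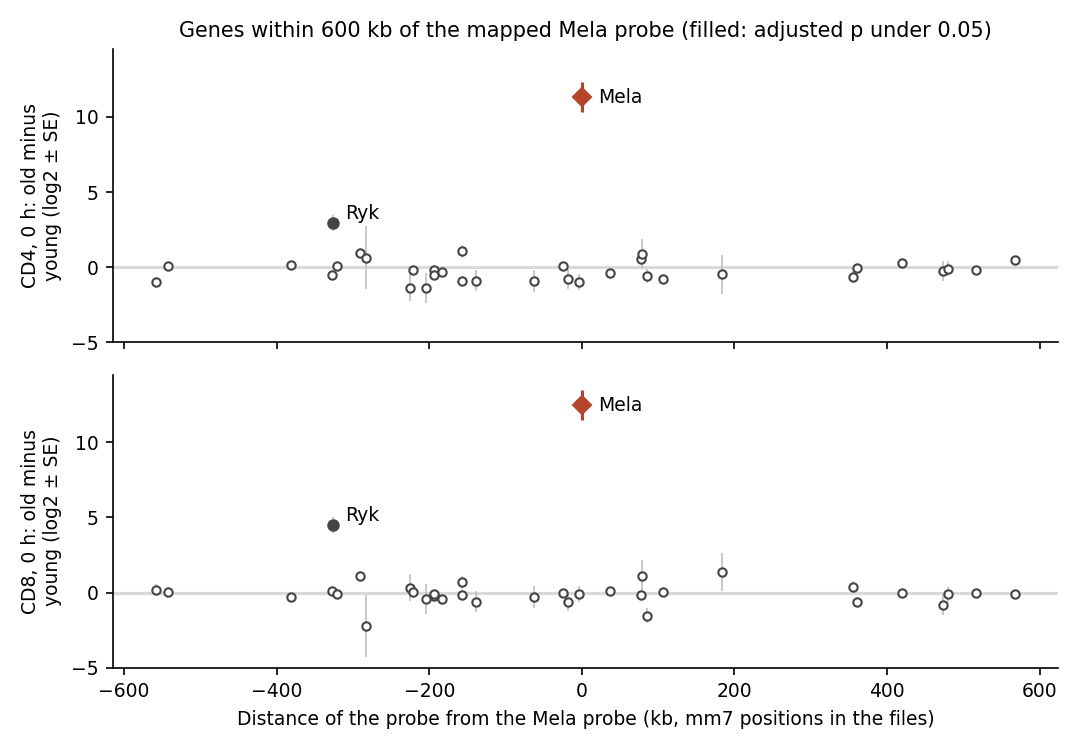
Old minus young difference in log2 units at 0 h against distance in kb from the Mela probe for genes within 600 kb in the scanner files' annotation, in CD4 and CD8 cells. Mela stands at 11.33 and 12.50, and of the 34 neighbours the Ryk probe alone passed the threshold, at 2.96 and 4.48.

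Genes known to act on such proviruses were taken from lists, in the order of the viral life cycle. The 4 receptor genes of murine retroviruses (Slc7a1, Slc20a1, Slc20a2 and Xpr1) showed no call in any age comparison, with medians of -0.15 and -0.26 at 0 h and 0.11 and -0.02 after stimulation. Slc7a1, the receptor of ecotropic viruses, was at -4.02 ± 0.75 in old and -3.35 ± 0.92 in young CD4 cells (SD, n = 3), a difference of -0.67 (limma, adjusted p = 0.56), and differed by -0.27 in CD8 cells (adjusted p = 0.95). Xpr1, the receptor of xenotropic and polytropic viruses, was the one receptor under an unadjusted p of 0.05, with 0.81 in stimulated CD4 cells (adjusted p = 0.43).

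Of 35 genes of proviral silencing, 1 was higher in old CD4 cells at 0 h, where 1.21% of all genes were called higher, and none passed in the other 3 comparisons. It was Resf1, a partner of Setdb1 in retroelement silencing. Its old CD4 arrays ran from 5.23 to 5.999 and its young ones from 4.09 to 4.37, without overlap, and the difference was 1.29 ± 0.24 (SE; limma, adjusted p = 0.033), against 0.12 in CD8 cells (adjusted p = 0.95). Without the 2 young arrays that lacked Xist the Resf1 difference was 1.13 (adjusted p = 0.27), and with each array scaled to its median instead of its 75th percentile the adjusted p was 0.15. The median of the 35 was 0.10 and -0.01 at 0 h and 0.07 and 0.09 after stimulation.

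The core silencing enzymes were not called. Trim28, the scaffold that recruits repressors to proviruses, differed by -0.88 in old CD4 cells (limma, adjusted p = 0.16) and 0.13 in CD8 cells. Setdb1, the histone methyltransferase, differed by 0.10 and -0.13, with adjusted p = 0.88 and 0.95. Dnmt1, the maintenance DNA methyltransferase, differed by -0.14 in CD4 cells and 1.52 in CD8 cells, where 1 young array at -2.85 set the young SD to 2.91 (adjusted p = 0.97 and 0.73). With the slide as a block, 5 of the 35 were higher and 3 lower in CD4 cells, including Trim28 (adjusted p = 0.0032), beside 22.8% of all genes, and 1 higher and 2 lower in CD8 cells, beside 9.59%.

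Of 20 restriction factors, Mx1, an interferon-induced GTPase, was the only one past the threshold, in CD8 cells at 0 h, where 1.69% of all genes were called higher. The old arrays ran from -1.72 to -0.72 and the young ones from -3.59 to -2.88, and the difference was 2.05 ± 0.42 (SE; limma, adjusted p = 0.034), whereas in CD4 cells it was 1.499 (adjusted p = 0.11) and after stimulation -0.18 in CD8 cells. With median scaling its adjusted p was 0.0996. Apobec3, a deaminase that restricts murine leukaemia viruses, differed by 0.28 and 0.60 at 0 h (adjusted p = 0.52 and 0.21) and by 0.66 and 0.85 after stimulation (adjusted p = 0.42 and 0.23). The median of the list was 0.02 in CD4 and 0.36 in CD8 cells at 0 h, and 0.13 and -0.23 after stimulation.

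Of 20 genes that sense foreign nucleic acid, 18 were kept, and 1 of these, Dhx58, an RNA-binding helicase of the RIG-I family, was higher in old CD8 cells at 0 h. Its levels were 1.60 ± 0.24 in old and 0.66 ± 0.13 in young CD8 cells (SD, n = 3), a difference of 0.93 (limma, adjusted p = 0.027), against 0.48 in CD4 cells (adjusted p = 0.22). With median scaling the adjusted p was 0.56. After stimulation Dhx58 in CD8 cells differed by -0.77 (adjusted p = 0.59). The medians of the 18 were 0.02, 0.11, -0.02 and -0.45. For Resf1, Mx1 and Dhx58 the difference between the cell types was itself tested at 0 h, with adjusted p = 0.26, 0.75 and 0.53 (limma), so none was shown to differ between them. Each of these 3 calls was lost in 8 of the 12 fits that left out 1 array of 0 h.

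None of 18 transcription factors known to bind the enhancers of retroviral LTRs, and none of 12 T cell activation genes, passed the threshold in any age comparison. At an unadjusted p under 0.05, 5, 4, 8 and 5 of the LTR factors passed, beside 17.1%, 11.4%, 9.12% and 9.07% of all genes, and their medians were 0.24, -0.08, 0.25 and 0.20. Of the activation genes 2, 3, 3 and 0 passed, and their medians were 0.01, 0.01, 0.29 and 0.08. With the slide as a block, which called 22.8% and 9.59% of all genes in CD4 and CD8 cells at 0 h, 5 and 5 of the 20 restriction factors, 8 and 2 of the 18 sensing genes, 5 and 3 of the 18 LTR factors and 4 and 4 of the 12 activation genes passed, and none of the 4 receptors did. The activation marker Il2ra stood at a median of -1.35 in CD4 and -5.04 in CD8 cells at 0 h and of 2.91 and 2.79 after stimulation. Mela in old cells was below its 0 h mean at every stimulated time. Against the 1 old CD4 array of 0 h from the same scanner, however, it changed by 0.28 at 4 h and by -0.53 on average.

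Markers of other cells moved with age at 0 h, beside Mela. Of 14 B cell markers 13 were kept, and 5 were higher in old CD4 cells (Ms4a1, Pax5, Blnk, Cd79b and Bank1, by 1.30 to 3.36) and 2 in old CD8 cells (Cd22 and Cd72), with medians of 1.32 and 1.03, where 1.21% and 1.69% of all genes were called higher. With the replicate number as a block, Pax5 kept its call in CD4 cells (limma, adjusted p = 0.023) and Ms4a1, Blnk, Cd79b and Bank1 did not, with adjusted p = 0.054, 0.067, 0.062 and 0.069. With the slide as a block, 7 of the 13 were higher in old CD4 and 4 in old CD8 cells, beside 22.8% and 9.59% of all genes called. The summed level of the 13, in multiples of the 75th percentile, was 11.4 to 12.8 in old and 3.14 to 5.30 in young CD4 arrays, and 17.5 to 26.9 and 11.1 to 12.6 in CD8 arrays. None of the 5 passed without the 2 young arrays that lacked Xist, when 0.072% of all genes did. Within slides, the median B cell difference was 0.23 on slide 9, where Mela differed by 7.26, and 0.25 on slide 4, where Mela differed by 12.18, against 2.16 and 1.31 on slides 12 and 13, where Mela differed by 13.37 and 12.66. After stimulation the summed B cell level in CD4 cells was higher in the old array at all 4 times, at 2.24, 4.24, 4.26 and 4.24 against 2.19, 1.44, 1.67 and 2.44 at 4, 12, 24 and 72 h. The mean log2 level of the 13 was lower in the old array at 4 h, at -4.07 against -3.57, and higher at the later times. Only 5 to 8 of the 13 were well above background on these old arrays and 6 to 9 on the young ones. In stimulated CD8 cells the summed level was 2.45 to 4.69 in old and 2.50 to 2.90 in young arrays, which overlap, and higher in the old array at 4, 24 and 72 h. Of the 13 markers, 2 to 11 were well above background on the old CD8 arrays, the fewest at 72 h, and 5 to 9 on the young ones. The part of B cells in the Mela differences was not tested beyond these values.

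The summed level of 9 plasma cell markers was 39.4 to 90.8 in old and 4.32 to 36.4 in young CD4 arrays, and 64.9 to 69.0 and 64.4 to 71.0 in CD8 arrays. The mean log2 level of these 9 markers, which weighs each alike, did not overlap in CD8 arrays, at -0.50 to -0.41 in old and -2.26 to -1.49 in young ones. With the slide as a block 7 of the 9 were higher in old CD8 cells, beside 9.59% of all genes called, with within-slide medians of 1.28 and 1.99. The 15 myeloid markers had no call without that block, yet their summed level was 52.4 to 190 in old and 9.75 to 50.5 in young CD8 arrays, without overlap. Their mean log2 level did overlap, at -0.98 to -0.26 in old and -2.74 to -0.27 in young CD8 arrays. With the block 5 of the 15 were higher in old CD8 cells, and their within-slide median was -0.53 on slide 4, where Mela differed by 12.18, and 1.32 on slide 13, where it differed by 12.66. In CD4 arrays the myeloid sums overlapped, at 14.8 to 235.9 and 4.45 to 238.1. The highest sum of each age was on replicate 3, in young cells the only CD4 array of 0 h that detected Mela. In old CD4 cells replicate 3 had the lowest Mela level of 0 h, 5.26. Old replicates 1 and 2, with myeloid sums of 14.8 and 15.2, had Mela levels of 7.22 and 7.45. The 8 natural killer cell markers summed to 70.7 to 85.1 in old and 59.6 to 68.8 in young CD8 arrays, with 3 higher in the slide-block fit. Of the 9 T cell markers none passed without the block. With it 4 were lower in old CD4 cells, beside 22.8% of all genes called, and none passed in CD8 cells. Further single markers past the threshold were Ccr9, lower in both cell types, Pf4, lower in old CD4 cells (adjusted p = 0.069 with the replicate block for both Pf4 and Ccr9 there), and Prdm1, higher, and Car2, lower, in old CD8 cells, in a background of 0.52% of genes called lower in either cell type. In old CD8 cells at 0 h Gzmm and Zbtb7b were also higher and Trat1 lower. The part of plasma, myeloid and other cells in the age differences of Mela was not tested.

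The genes whose levels followed Mela most closely were ranked by Pearson's r, without a test, since the 28 arrays fall into an old and a young cluster and r over them mostly measures that separation. Over the 28 arrays the closest was Pla2g5 (r = 0.957, Spearman's rho = 0.856), then TC1488278, which has no gene name in the files (r = 0.890), and Naip2, an inflammasome receptor (r = 0.874). Casp1, the inflammatory caspase (r = 0.862), Rnf43, Pde8a, Bmpr1a, Mfap1a, Gzmk, the cytotoxic protease granzyme K (r = 0.841), and Nuak2 (r = 0.831) completed the 10. Pla2g5 was detected on all 14 old arrays, at -0.71 to 1.46, and on 2 of 14 young arrays, with all young arrays between -7.66 and -3.92, so that it too was separated by age without overlap.

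Within the 14 old arrays, which share cell type, time and scanner differences, the closest genes were others. Tmem80 led with r = 0.956, followed by Amer1 (r = 0.920) and 5830468F06Rik (r = 0.912), and Gzmk, at r = 0.891, was the only gene on both lists of 10. The other 9 had an r between -0.33 and 0.13 over the 28 arrays. Pla2g5, closest over all arrays, had r = 0.692 within the old arrays and -0.02 within the young ones, where Mela was mostly below background. Gzmk was detected on 13 of 14 old and 4 of 14 young arrays, and its old minus young difference was 5.66 in CD4 and 5.30 in CD8 cells at 0 h.

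**Figure D5:**
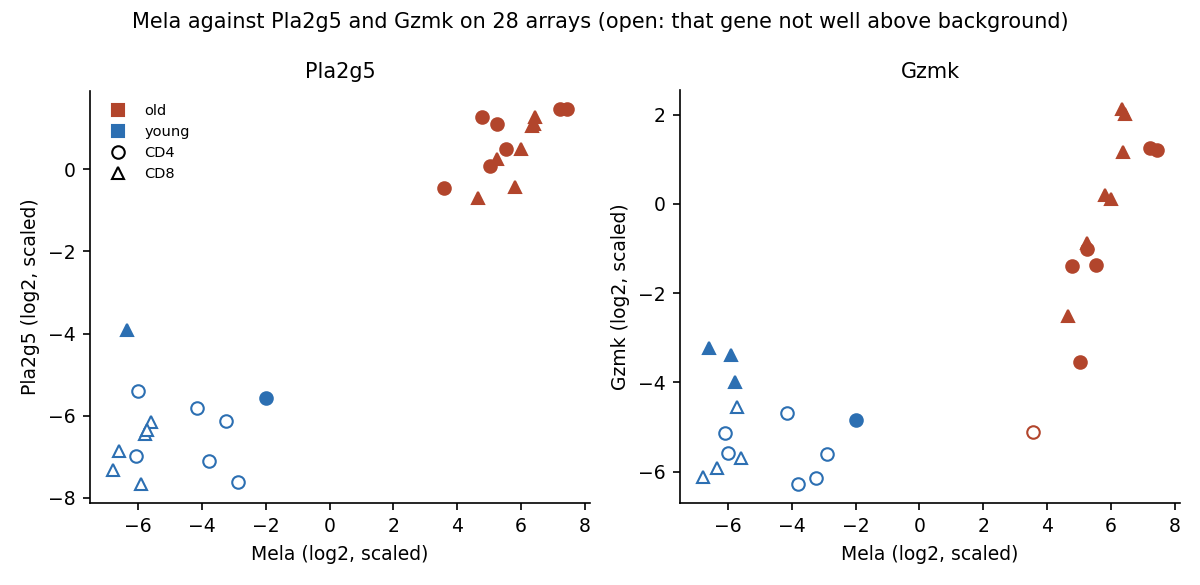
Levels of Pla2g5 (left) and Gzmk (right) against those of Mela on each of the 28 arrays, as log2 intensity relative to the array's 75th percentile. Colours mark age, shapes mark cell type, and open symbols mark arrays on which the gene was not well above background. Pla2g5 follows the separation by age (r = 0.957), and Gzmk also varies with Mela within the 14 old arrays (r = 0.891).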

How the data were processed

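Intensity values of 28 Agilent one-colour arrays were background-corrected in Feature Extraction by the authors, per the file headers (version 10.1.1.1 for 18 arrays, 9.5.1.1 for 10). The log2 values of the series matrix were deposited by the authors with scale, centring and reference unstated; they served as an alternative only. Its column medians run from -0.972 to 0.494. Of its 28 columns, 22 matched their own array up to a constant per gene; 6 (CD8 at 4, 12 and 24 h) held another time of the same age, and the scanner files were followed.

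Levels are log2 processed signal minus the log2 75th percentile of each array. A gene was read by its brightest probe well above background on at least 3 arrays. limma 3.58.1 in R 4.3.3 fitted the 12 arrays of 0 h (4 groups) and the 16 stimulated arrays (a mean per cell type and time, an age term per cell type), with Benjamini-Hochberg adjustment over all genes at 0.05. Probes were named through RefSeq genes on GRCm38.p6, of which 22951 matched by accession, 6659 by symbol and 3109 by synonym, and 8455 kept the file's name. The number of arrays limits the precision. The normexp alternative used median signals, since mean signals are absent from 18 files.

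The rule for named genes took Mela, Slc7a1, Trim28, Setdb1, Dnmt1, Apobec3, the list members past the threshold, the nearest neighbours and the 10 genes most like Mela over 28 and over 14 arrays; other names were chosen after their values were seen. Gene members and lists were chosen with earlier results of these data known. Scripts were tested on simulated data. Same-numbered CD4 arrays of 0 h deviated together (r = 0.55, 0.49 and 0.68) and share slides; CD8 ones did not deviate together (r = -0.24, 0.09 and -0.41), although replicate 2 shares a slide. The labels do not say what a number marks. With the number as a block 149 genes in place of 337 were called in CD4 cells.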

Additional observations from a re-analysis of the deposited data

How the results depend on the processing

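Old minus young Mela at 0 h kept its direction in every setting run: 10.64 to 12.68 in CD4 and 12.25 to 12.66 in CD8 cells with 1 array left out, 8.42 and 8.29 with normexp correction and quantile scaling, 7.26 and 13.37 within slides 9 and 12, 12.18 within slide 4, and 8.64 in CD4 cells without the 2 arrays lacking Xist, a choice made after seeing the data. After stimulation it was 7.93 to 8.73 in CD4 and 11.33 to 11.73 in CD8 cells with 1 time left out, and 6.19 and 7.21 with normexp. The change with stimulation in old cells was -2.60 to -1.51 in CD4 and -1.16 to -0.71 in CD8 cells with 1 time or 1 array of 0 h left out; in CD4 cells it was -0.53 against the 0 h array of the same scanner, also chosen after seeing the data, and in CD8 cells -0.61 with median scaling and -1.11 with normexp. The CD8 minus CD4 difference of old cells ran from -0.94 to 0.16 with 1 array left out, and turned to 0.04 and 0.16 without old CD4 replicate 1 or 2.

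The counts of genes called depended on the setting. Of 337 in CD4 cells at 0 h there were 74 with median scaling, 658 with normexp, 116 without the filter, 149 with the replicate block, 4440 with the slide block, 6142 within slide 12, 14 without the arrays lacking Xist, and 28 to 591 with 1 array left out (28 and 32 without young replicate 1 and 2, 591 without young replicate 3). Of 430 in CD8 cells there were 262 with median scaling, 367 with the replicate block, 1864 with the slide block, 5983 within slide 13 and 173 to 706 with 1 array left out. Of 2051 between cell types there were 1108 with median scaling, 1296 without the filter and 807 to 2672 with 1 array left out. After stimulation, 22 in CD4 cells became 52 with median scaling, 53 with normexp and 1 to 7 with 1 time left out, and 80 in CD8 cells became 140 with median scaling and 1 to 54 with 1 time left out. Higher calls made up 70.0% in CD4 cells at 0 h and 91.9% with median scaling, 59.5% and 39.2% between cell types, and 90.9% in stimulated CD4 cells and 75.5% with normexp. Median scaling put the median of all genes in stimulated CD8 cells at 0.23. The causes were not tested.

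In CD8 cells at 0 h the replicate block gave adjusted p = 0.080 for Mx1 and 0.066 for Dhx58 (limma), although CD8 numbers do not pair the arrays. Without the filter on dim probes Resf1, Mx1 and Dhx58 had adjusted p = 0.075, 0.057 and 0.075. Mela has 1 probe, so no further probe was read in its place, and the series matrix gave no value for the change with stimulation or for stimulated CD8 cells. Young Mela levels below background and single stimulated arrays limit the folds.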

Other observations

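Rtl5, a gene derived from the gag of an ancient retroelement and chosen after its values were seen, differed by 1.83 in CD4 (limma, adjusted p = 0.086) and 2.49 in CD8 cells at 0 h (adjusted p = 0.023), where 2 of 3 old and no young CD8 array was well above background. With normexp correction the CD8 value was 0.45, and after stimulation it was -1.68 (adjusted p = 0.43).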
